A study of Mus musculus with 8 samples.

Results

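The genes described here are 44 components of the Wnt signalling pathway, followed by RNA-seq in mouse embryonic stem cells (ESCs) and in cells at day 5 of differentiation to spinal motor neurons (SMNs). They were chosen by gene symbol and not by a cutoff on any measured value, though with earlier results of these data known. They comprise 19 Wnt ligands, 10 Frizzled receptors, the 2 co-receptors *Lrp5* and *Lrp6*, 10 secreted antagonists and the 3 feedback targets *Axin2*, *Lef1* and *Sp5*, out of 36808 rows in the deposited table. All 44 were found. The study asked how Polycomb repressive complex 2 (PRC2), which deposits the repressive histone mark H3K27me3, shapes gene expression when ESCs commit to a lineage. Values were available for 8 libraries, with 1 library per condition and no replicates, so no difference below has a replicate check and no p-value is given.

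The ESC libraries came from E14 wild-type cells (129/Ola background), CJ7 cells, a second wild-type line (129/S), Suz12delta cells (C57/BL6) and Eednull cells (BALB/cR1). The day 5 libraries came from E14, Suz12GT (129/Ola), Suz12delta and Eednull cells. Suz12GT is a gene trap allele that makes a SUZ12-β-galactosidase fusion and keeps reduced H3K27me3. Suz12delta truncates SUZ12 and Eednull carries a point mutation in *Eed*, and the study describes both lines as having lost nearly all of the mark. The ESC lines were maintained on irradiated mouse embryonic fibroblasts, most of which were removed by letting them attach to a plate before ESCs were collected, and differentiation was induced by withdrawing LIF and adding retinoic acid and an agonist of Hedgehog signalling. Each genotype is a single line, and Suz12delta, Eednull and CJ7 cells each differ from E14 in strain, so genotype, line and strain cannot be told apart in those comparisons. The labels also state that the CJ7 library was prepared together with a library whose name matches that of Eednull ESCs. Both libraries may thus differ in preparation from E14 and Suz12delta ESCs, and Eednull ESCs also from Eednull cells at day 5.

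Wnt proteins are secreted, lipid-modified ligands that bind Frizzled receptors. In the canonical branch, a Wnt bridges a Frizzled and LRP5 or LRP6, which stabilises β-catenin and lets it activate genes together with TCF/LEF factors, among them the feedback genes *Axin2*, *Lef1* and *Sp5*. SFRP proteins, FRZB and WIF1 bind Wnts outside the cell, and DKK1, DKK2 and DKK4 block the LRP co-receptors. Wnt activity supports self-renewal in mouse ESCs, drives the primitive streak in the embryo, and in the spinal cord is strongest dorsally, away from the ventral region where motor neurons arise.

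Levels are FPKM, a measure of sequenced fragments that accounts for the length of the transcript and the size of the library, and can be set against each other between genes. Ratios between libraries are log2 ratios of FPKM + 0.1, which understates the difference of genes with low values. A gene entered a comparison when it was above 0 in both libraries and at 0.1 FPKM or more in either of them, and it was called higher or lower when it differed by at least 2-fold on that scale. A gene listed at 0 in either library received no ratio, because a listed 0 can be a failed estimate: *Axin1*, which encodes a scaffold of the β-catenin destruction complex used in all cells, is listed at 0 in E14 ESCs and lies between 12.6 and 22.6 FPKM in the other 7 libraries. In bulk RNA, fewer cells of a type and less RNA per cell cannot be told apart.

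Markers of several cell types differed between the libraries and moved with many of the differences described here. The summed level of 7 pluripotency genes was 1126 FPKM in E14, 921 in CJ7, 487 in Suz12delta and 887 in Eednull ESCs, and at day 5 1.22 FPKM in E14, 11.4 in Suz12GT, 17.2 in Suz12delta and 7.48 in Eednull cells. The summed level of 8 motor neuron and progenitor genes was 126 FPKM in E14 and 107 in Suz12GT cells at day 5, but 19.7 in Suz12delta and 18.2 in Eednull cells, with *Tubb3* listed at 0 in all 8 libraries. In ESCs that sum was 9.64 FPKM in E14, 16.6 in CJ7, 2.42 in Suz12delta and 13.4 in Eednull cells. From ESCs to day 5, 5 of 6 of these genes with a ratio were higher in Suz12delta cells and 2 of 5 in Eednull cells. *Olig2* was the 1 lower gene in both, at 0.107 and 0.0455 FPKM at day 5. In Suz12GT cells at day 5, 2 of 7 of these genes with a ratio were lower than in E14 and 0 higher. They were *Olig2*, at 10.5 against 22.1 FPKM, and *Pax6*, at 8.18 against 21.9 FPKM. The labelled cell type was thus carried by most of its markers in E14 and Suz12GT cells at day 5 and at most weakly in the other 2 lines. A set of 12 fibroblast genes summed to 94.9 FPKM in E14, 120 in CJ7, 556 in Suz12delta and 283 in Eednull ESCs, and at day 5 to 6.24 in E14, 23.4 in Suz12GT, 147 in Suz12delta and 83.6 in Eednull cells. A set of 10 endoderm genes summed to 5.35, 6.58, 37.8 and 62.6 FPKM in the same 4 ESC libraries and to 5.41, 41.9, 55.9 and 58.8 FPKM in the 4 day 5 libraries. Of 7 early mesoderm genes, the sum was 4.27, 4.51, 21.3 and 18.2 FPKM in ESCs in that order and 0.136, 0.310, 3.51 and 2.12 FPKM at day 5. In Suz12delta ESCs that sum was mostly *Hand1*, at 17.9 FPKM against 0.198 in E14, while *T* was at 2.36 against 2.60 and *Eomes* at 0.848 against 1.05 FPKM. Among these markers, *Nanog*, *Klf4*, *Lum*, *Dpt*, *Gata4*, *Afp* and 4 early mesoderm genes are listed at 0 in E14 cells at day 5. They have no ratio there and are missing from the marker counts below. *Gata4* was at 11.6 FPKM in Suz12GT, 10.3 in Suz12delta and 12.1 in Eednull cells at day 5. Other zeros include *Afp* in E14, CJ7 and Suz12delta ESCs, *Dpt* in E14 ESCs and Suz12GT cells at day 5, and *Ttr* in CJ7 ESCs. *Suz12* itself was at 41.3 FPKM in E14 ESCs and 6.21 FPKM in Suz12delta ESCs, while *Eed* was at 32.7 and 42.4 FPKM in E14 and Eednull ESCs, where a point mutation need not alter the RNA level. At day 5 *Suz12* was at 16.2 FPKM in E14, 10.3 in Suz12GT and 11.6 in Suz12delta cells, differences under 2-fold, so its level does not check the labels of the day 5 mutants.

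As a group, Frizzleds and co-receptors reached 1 FPKM more often than ligands. Of the 44 genes, 34 reached 1 FPKM in at least 1 library: 11 of 19 ligands, all 10 Frizzleds, both co-receptors, 8 of 10 antagonists and all 3 feedback targets. No ligand was at 1 FPKM or more in all 8 libraries, against 6 Frizzleds, both co-receptors, 3 antagonists and 1 feedback target, *Axin2*. The 19 ligands summed to 12.5 FPKM in E14 and 10.7 FPKM in CJ7 ESCs, and to 25.9 FPKM in Suz12delta and 28.1 FPKM in Eednull ESCs. At day 5 they summed to 13.3 FPKM in E14, 21.3 FPKM in Suz12GT, 38.0 FPKM in Suz12delta and 30.9 FPKM in Eednull cells. In both stages the wild-type libraries thus had the lowest ligand sums. The 10 Frizzleds summed to 54.6, 39.3, 26.3 and 47.7 FPKM in E14, CJ7, Suz12delta and Eednull ESCs, and at day 5 to 88.2, 79.8, 83.8 and 71.2 FPKM in E14, Suz12GT, Suz12delta and Eednull cells, an order unlike that of the ligands.

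**Figure D1:**
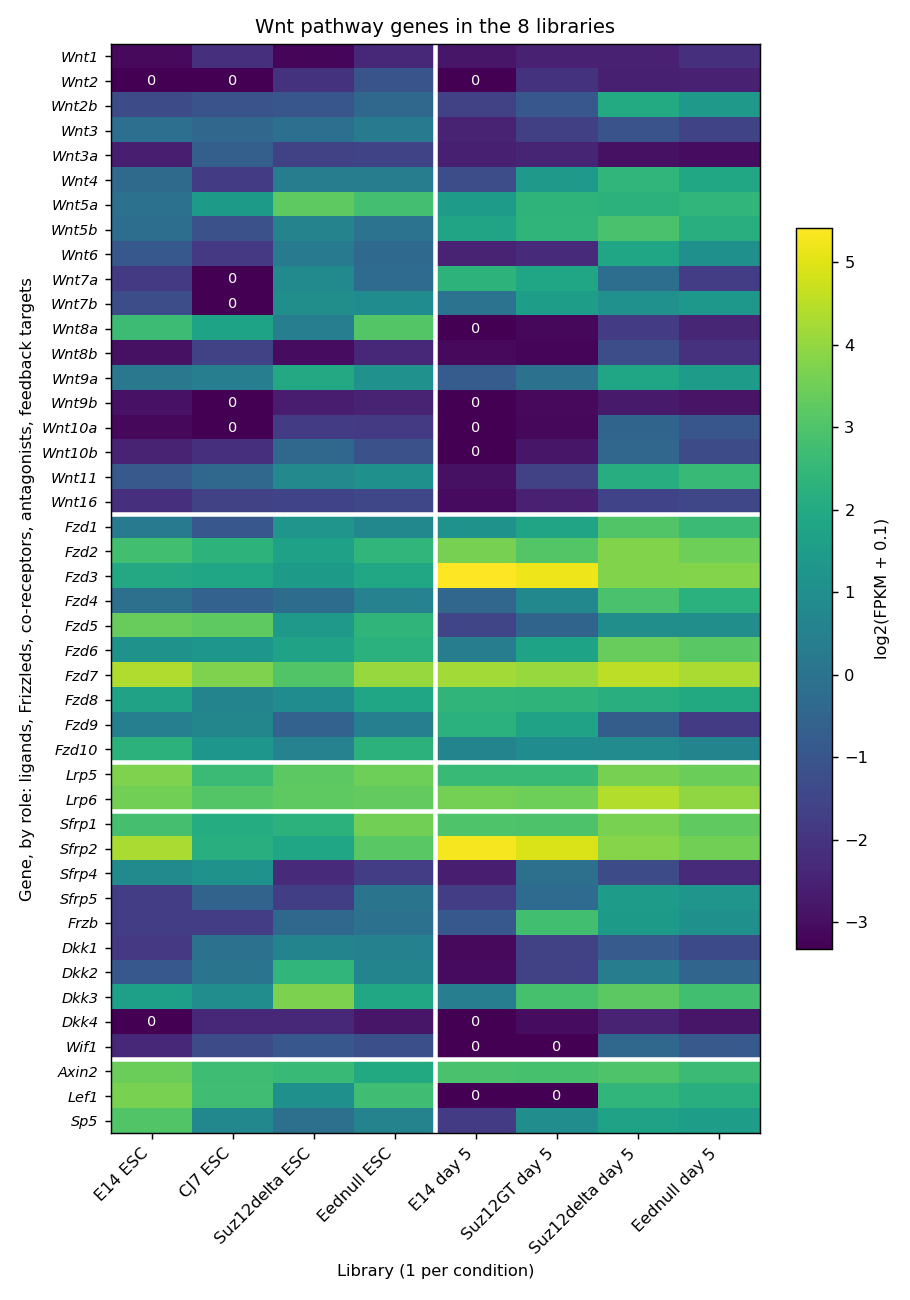
Level of each of the 44 genes (rows, by role) in each of the 8 libraries (columns), as log2 of FPKM + 0.1; a 0 marks a gene listed at 0. Both co-receptor rows lie above 5 FPKM in every library and Frizzled rows range from 0.186 FPKM (*Fzd9*, Eednull cells at day 5) to 42.4 FPKM (*Fzd3*, E14 cells at day 5), whereas most ligand rows are dark and 8 of the 44 genes are listed at 0 in E14 cells at day 5.

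In ESCs, 13 of the 39 Wnt pathway genes with a ratio were higher in Suz12delta than in E14 cells and 10 were lower, with a median log2 ratio of 0.28. Over all genes, 13.7% were called higher and 21.4% lower, with a median of -0.32. When the libraries were scaled to the same 75th percentile, the median over all genes was 0.03, the shares were 19.2% and 12.0%, and the pathway counts were 16 higher and 7 lower. In Eednull ESCs, 13 of 40 were higher and 5 lower, with a median of 0.61, against 11.5% and 9.71% of all genes and a median of -0.06. After scaling, 15 were higher and 3 lower, against 13.9% and 7.38% of all genes. The second wild-type line also differed from E14: 6 of 38 genes were higher in CJ7 and 7 lower, against 6.69% and 11.2% of all genes. With scaling, 8 were higher and 4 lower in CJ7, against 9.28% and 7.65% of all genes. With a pseudocount of 1 FPKM, 7 of 39 genes were higher in Suz12delta, 3 of 40 in Eednull and 0 of 38 in CJ7 ESCs. The shares of all genes were then 7.33%, 3.44% and 1.37%. These comparisons share the E14 ESC library, and the Suz12delta ESC library had the lowest FPKM sum of the 8, 389165. Relative to both wild-type lines, 8 of 36 genes were higher in Suz12delta ESCs (22.2%, against 10.1% of all genes) and 5 were lower (13.9%, against 11.8%), while 4 of 37 were higher in Eednull ESCs (10.8%, against 5.46%) and 1 was lower (2.70%, against 2.22%).

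At day 5, 12 of 32 genes with a ratio were higher in Suz12GT than in E14 cells and none of these 32 was lower, with a median log2 ratio of 0.71, where 13.2% of all genes were higher and 2.42% lower and the median was 0.12. In Suz12delta cells, 22 of 34 were higher and 4 lower with a median of 1.43, against 20.9% and 7.75% of all genes and a median of 0.21. In Eednull cells, 18 of 35 were higher and 4 lower with a median of 1.04, against 16.8% and 9.55% of all genes and a median of 0.05. With a pseudocount of 1 FPKM, 5 genes were higher in Suz12GT, 14 in Suz12delta and 13 in Eednull cells, against 4.67%, 11.4% and 8.83% of all genes. All 3 comparisons share the E14 library, which lists *Wnt2*, *Wnt8a*, *Wnt9b*, *Wnt10a*, *Wnt10b*, *Dkk4*, *Wif1* and *Lef1* at 0. In all 3 mutants, 11 of 32 genes were higher (34.4%, against 7.60% of all genes): the ligands *Wnt4*, *Wnt7b* and *Wnt11*, the receptors *Fzd4* and *Fzd6*, the antagonists *Sfrp5*, *Frzb*, *Dkk1*, *Dkk2* and *Dkk3*, and the target *Sp5*. None of the 32 was lower in all 3 (0.657% of all genes). In both Suz12delta and Eednull cells, 18 of 34 were higher (52.9%, against 15.0% of all genes) and 4 were lower (11.8%, against 6.06%): *Wnt7a*, *Fzd3*, *Fzd9* and *Sfrp2*. Fibroblast genes were higher in 8 of 10 with a ratio in Suz12GT cells and in 10 of 10 in Suz12delta and Eednull cells, and endoderm genes in 8 of 8 in each mutant. Pluripotency genes were higher in 5 of 5 with a ratio in Suz12GT (median 2.34) and Suz12delta cells (median 2.85) and in 3 of 5 in Eednull cells (median 1.08). The part of these 3 marker lists in the Wnt pathway counts was not tested.

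From ESCs to day 5, 6 of 33 genes were higher and 11 lower in E14 cells, against 15.3% and 21.3% of all genes. In Suz12delta cells, 21 of 42 were higher and 5 lower, against 24.6% and 9.64% of all genes, and scaling to the same 75th percentile gave 15 and 7, against 14.8% and 14.2% of all genes, as it moved the median over all genes from 0.42 to 0.06. In Eednull cells, 11 of 42 were higher and 10 lower, which was 26.2% and 23.8% of them, against 16.2% and 16.6% of all genes.

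Among ligands, those of ESCs lacking H3K27me3 were mostly at higher levels than in E14 ESCs. Of 15 ligands with a ratio, 8 were higher and 1 lower in Suz12delta ESCs, with a median log2 ratio of 1.16, against 13.7% and 21.4% of all genes. Of 16 in Eednull ESCs, 7 were higher and none of the 16 was lower, with a median of 0.93, against 11.5% and 9.71% of all genes. In CJ7 ESCs, 3 of 14 were higher and 1 lower, against 6.69% and 11.2% of all genes, and 5 were listed at 0 in CJ7 or E14 cells. After scaling, 10 were higher and 1 lower in Suz12delta ESCs, against 19.2% and 12.0% of all genes. In Eednull ESCs 9 were then higher and 0 lower, against 13.9% and 7.38% of all genes. With a pseudocount of 1 FPKM, 4 were higher in Suz12delta ESCs (median 0.42) and 3 in Eednull ESCs (median 0.34), against 7.33% and 3.44% of all genes. With a minimum of 1 FPKM, 3 of 7 were higher in Eednull ESCs, against 8.12% of all genes. With CJ7 as wild type, 7 of 14 were higher and 3 lower in Suz12delta ESCs, against 17.3% and 18.6% of all genes. Eednull ESCs then had 6 of 14 higher and 0 lower, against 11.8% and 5.71% of all genes. Against E14 ESCs, the rise was not particular to ligands. Of 9 antagonists with a ratio, 5 were higher and 2 lower in each mutant ESC line, with medians of 1.35 in Suz12delta and 1.13 in Eednull cells. All genes were at 13.7% and 21.4% in Suz12delta and 11.5% and 9.71% in Eednull ESCs. With a pseudocount of 1 FPKM, 3 antagonists were higher in Suz12delta and 0 in Eednull ESCs. In CJ7 ESCs, 3 of 9 antagonists were higher than in E14 and 1 lower, against 6.69% and 11.2% of all genes. With CJ7 as wild type, 3 of 10 were higher and 2 lower in Suz12delta ESCs (median 0.28), against 17.3% and 18.6%. Eednull ESCs then had 3 of 9 higher and 1 lower (median 0.59), against 11.8% and 5.71%. The antagonist differences thus depended in part on the wild-type line. Endoderm genes were also higher than in E14 ESCs, in 8 of 8 with a ratio in Suz12delta and 9 of 9 in Eednull ESCs against 2 of 7 in CJ7. Fibroblast genes were higher in 10 of 11 in Suz12delta and 6 of 11 in Eednull ESCs against 3 of 11 in CJ7. The part of both lists in the ligand counts was not tested.

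*Wnt5a* (chromosome 14, 29317936 to 29340633 on NCBI build 37) encodes a ligand best known for β-catenin-independent signalling in growing tissues. It was at 0.856 FPKM in E14, 2.63 in CJ7, 9.28 in Suz12delta and 6.85 in Eednull ESCs, so both mutant lines were above both wild-type lines. The log2 ratio to E14 ESCs was 3.29 in Suz12delta and 2.86 in Eednull cells, and 1.51 in CJ7. At day 5 it was at 2.74 FPKM in E14, 5.03 in Suz12GT, 4.79 in Suz12delta and 5.32 in Eednull cells, and none of the 3 mutants reached 2-fold, with ratios of 0.85, 0.78 and 0.93. Its level in E14 cells was higher at day 5 than in ESCs by a log2 ratio of 1.57, while in Suz12delta and Eednull cells the ratios were -0.94 and -0.36.

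*Wnt11* (chromosome 7, 105983622 to 106003705), a ligand of cell movement and heart development, was at 0.443 FPKM in E14, 0.667 in CJ7, 1.64 in Suz12delta and 1.97 in Eednull ESCs. At day 5 it was at 0.0314 FPKM in E14 and 0.226 in Suz12GT cells, but at 4.28 in Suz12delta and 5.77 in Eednull cells. These libraries were the highest of the 8, and the log2 ratios to E14 were 1.31, 5.06 and 5.48. *Wnt11*, *Wnt5a* and the antagonist *Frzb* were the 3 of 36 genes called higher in both Suz12delta and Eednull ESCs against both wild-type lines (8.33%, against 2.97% of all genes).

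Several other ligands were low in E14 cells at day 5 and higher in the 2 lines that have lost nearly all H3K27me3. *Wnt6*, expressed in many epithelia, was at 0.426 FPKM in E14, 0.171 in CJ7, 1.07 in Suz12delta and 0.692 in Eednull ESCs, and at day 5 at 0.0828 in E14, 0.108 in Suz12GT, 3.46 in Suz12delta and 2.01 in Eednull cells. *Wnt2b*, a ligand of mesenchyme, ranged from 0.313 to 0.677 FPKM in the 4 ESC libraries and was at 0.219 in E14, 0.415 in Suz12GT, 3.97 in Suz12delta and 2.53 in Eednull cells at day 5. *Wnt9a*, a ligand of joints and mesenchyme, was at 1.02, 1.23, 3.73 and 2.06 FPKM in E14, CJ7, Suz12delta and Eednull ESCs and at 0.486, 0.871, 3.49 and 2.77 FPKM in E14, Suz12GT, Suz12delta and Eednull cells at day 5. For these 3 ligands Suz12GT cells stayed under 2-fold, with ratios of 0.18, 0.69 and 0.73, against 4.28, 3.67 and 2.62 in Suz12delta and 3.53, 3.05 and 2.29 in Eednull cells.

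*Wnt4*, needed in kidney and gonad development, was higher in all 3 mutants at day 5. It was at 0.716 FPKM in E14, 0.189 in CJ7, 1.16 in Suz12delta and 1.2 in Eednull ESCs, and at 0.317 in E14, 2.52 in Suz12GT, 5.28 in Suz12delta and 3.65 in Eednull cells at day 5, with ratios to E14 of 2.65, 3.69 and 3.17. *Wnt7b* was at 0.317 FPKM in E14 and listed at 0 in CJ7 ESCs, and was at 1.91 in Suz12delta and 1.80 in Eednull ESCs. Its day 5 levels were 0.899 in E14, 2.86 in Suz12GT, 2.02 in Suz12delta and 2.41 in Eednull cells, with ratios of 1.56, 1.08 and 1.33. *Wnt5b*, the closest relative of *Wnt5a*, was between 0.354 and 1.39 FPKM in ESCs and at 3.30, 5.12, 7.34 and 4.49 FPKM in E14, Suz12GT, Suz12delta and Eednull cells at day 5. Its level was at least 2-fold higher at day 5 than in ESCs in each line with both stages, by 1.93 in E14, 2.32 in Suz12delta and 2.18 in Eednull cells, and it was the only ligand with that pattern among those with a ratio in all 3 lines.

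*Wnt7a* (chromosome 6, 91313975 to 91361357), a ligand of the developing nervous system, ran the other way at day 5. It was at 4.95 FPKM in E14 and 3.41 in Suz12GT cells, and at 0.788 in Suz12delta and 0.200 in Eednull cells. With 37.3% of the ligand sum it was the leading ligand of E14 cells at day 5. In ESCs it was at 0.182 FPKM in E14, listed at 0 in CJ7, and at 1.73 in Suz12delta and 0.727 in Eednull cells. Its day 5 ratios to E14 were -0.52 in Suz12GT, -2.51 in Suz12delta and -4.07 in Eednull cells, the same order as the summed motor neuron markers, whose part in this difference was not tested.

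The canonical ligands of the early embryo were highest in ESCs. *Wnt8a* was at 6.29 FPKM in E14, 3.27 in CJ7, 1.23 in Suz12delta and 8.35 in Eednull ESCs, and made up 50.1% of the ligand sum of E14 ESCs. At day 5 it was listed at 0 in E14 and at 0.0145, 0.192 and 0.0915 FPKM in Suz12GT, Suz12delta and Eednull cells. The 2 mutant lines stood on opposite sides of E14 ESCs, with ratios of -2.26 in Suz12delta and 0.40 in Eednull cells. *Wnt3*, required for the primitive streak, was at 0.815, 0.641, 0.815 and 1.13 FPKM in E14, CJ7, Suz12delta and Eednull ESCs and at 0.0833, 0.215, 0.372 and 0.244 FPKM in E14, Suz12GT, Suz12delta and Eednull cells at day 5. The other 8 ligands, *Wnt1*, *Wnt2*, *Wnt3a*, *Wnt8b*, *Wnt9b*, *Wnt10a*, *Wnt10b* and *Wnt16*, stayed under 1 FPKM in all 8 libraries. Of these, *Wnt10a* and *Wnt10b* were listed at 0 in E14 cells at day 5 and were at 0.603 and 0.639 FPKM in Suz12delta and 0.407 and 0.307 FPKM in Eednull cells.

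Position in the genome was not used to choose the genes, and 8 of the 19 ligand genes lie in 4 pairs less than 50 kb apart. *Wnt6* and *Wnt10a* lie 6196 bases apart on the plus strand of chromosome 1 (74818466 to 74831893 and 74838090 to 74850753), and both had their highest level of the 8 libraries in Suz12delta cells at day 5, followed by Eednull cells at day 5. *Wnt9a* and *Wnt3a* lie 16175 bases apart on chromosome 11, on opposite strands, and did not run together. *Wnt3a* was at 0.0679, 0.521, 0.227 and 0.249 FPKM in E14, CJ7, Suz12delta and Eednull ESCs and at 0.0315 and 0.0226 FPKM in Suz12delta and Eednull cells at day 5, where *Wnt9a* was at 3.49 and 2.77 FPKM. The other pairs were *Wnt9b* with *Wnt3*, 24328 bases apart on chromosome 11, and *Wnt10b* with *Wnt1*, 11706 bases apart on chromosome 15.

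**Figure D2:**
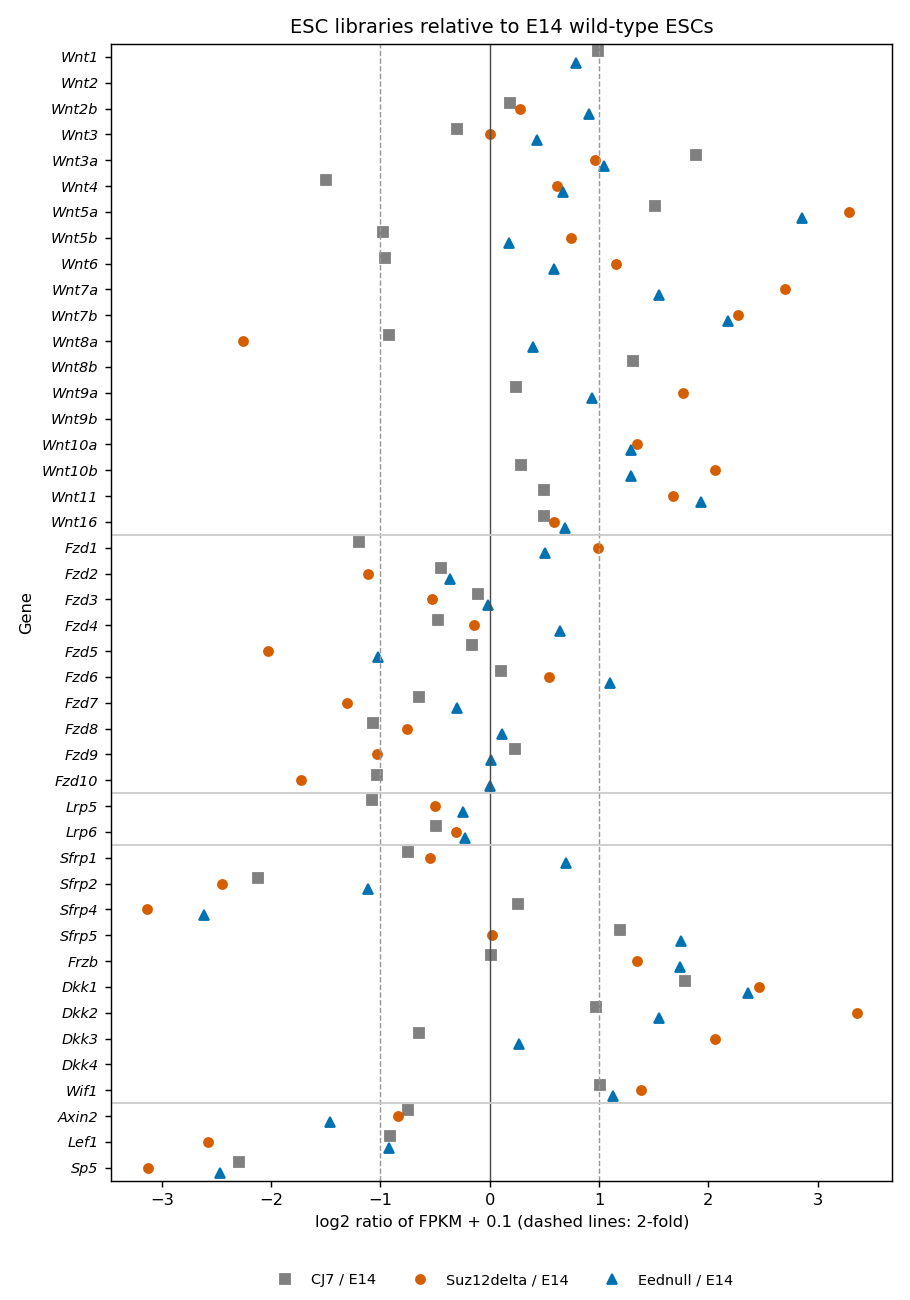
Log2 ratio of FPKM + 0.1 to E14 wild-type ESCs for each gene (rows) in CJ7 (grey squares), Suz12delta (orange circles) and Eednull ESCs (blue triangles); dashed lines mark 2-fold and genes without a ratio have no symbol. *Wnt5a* lies at 3.29 and 2.86 in the mutants and 1.51 in CJ7, and *Sp5* lies below the 2-fold line in all 3 libraries.

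Frizzled receptors in mutant ESCs depended on which wild-type line they were set against. In Suz12delta ESCs, 5 of 10 were lower and 0 higher than in E14 ESCs, with a median log2 ratio of -0.90, where 21.4% of all genes were lower and the median was -0.32. Scaling left 2 lower and 1 higher with a median of -0.56, against 12.0% and 19.2% of all genes. CJ7 as wild type gave 2 lower and 1 higher with a median of -0.54, against 18.6% and 17.3% of all genes. In Eednull ESCs, 1 was higher and 1 lower than in E14 with a median of 0.01, against 11.5% and 9.71% of all genes. Against CJ7, 5 were higher and 0 lower in Eednull ESCs with a median of 0.67, where 11.8% and 5.71% of all genes were called. In CJ7 ESCs 3 were lower than in E14, against 11.2% of all genes, and after scaling 1 was, against 7.65%. *Fzd5*, a receptor of early embryonic epithelia, was at 10.4 FPKM in E14, 9.32 in CJ7, 2.49 in Suz12delta and 5.09 in Eednull ESCs, so both wild-type lines were above both mutants. *Fzd7*, the leading Frizzled of all 4 ESC libraries and the one chiefly linked to Wnt response in pluripotent cells, was at 20.4, 13.0, 8.19 and 16.5 FPKM in E14, CJ7, Suz12delta and Eednull ESCs. Pluripotency genes were also lower in Suz12delta ESCs, for 5 of 7, and their part in this was not tested.

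At day 5, 4 of 10 Frizzleds were higher and 2 lower in Suz12delta cells, against 20.9% and 7.75% of all genes. The same genes were called in Eednull cells, against 16.8% and 9.55% of all genes. *Fzd3* (chromosome 14, 65819863 to 65881300), a receptor that guides axon growth, was at 42.4 FPKM in E14 and 36.0 in Suz12GT cells and at 13.4 in Suz12delta and 13.6 in Eednull cells, and it lay between 2.58 and 3.76 FPKM in the 4 ESC libraries. It made up 48.1% of the Frizzled sum in E14 cells at day 5. *Fzd9*, found in neural progenitors, was at 1.26, 1.5, 0.565 and 1.27 FPKM in E14, CJ7, Suz12delta and Eednull ESCs and at 4.65, 3.19, 0.50 and 0.186 FPKM in E14, Suz12GT, Suz12delta and Eednull cells at day 5. Both receptors were thus high where the motor neuron markers were high, and their ratios to E14 were -0.24 and -0.53 in Suz12GT, -1.66 and -2.98 in Suz12delta and -1.64 and -4.05 in Eednull cells.

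The 4 Frizzleds that were higher in Suz12delta and Eednull cells at day 5 were *Fzd1*, *Fzd4*, *Fzd5* and *Fzd6*. *Fzd4*, also the receptor for norrin in blood vessels, was between 0.577 and 1.36 FPKM in ESCs and at 0.634 in E14, 1.59 in Suz12GT, 7.31 in Suz12delta and 4.71 in Eednull cells at day 5. *Fzd6*, a planar polarity receptor, was at 2.14, 2.29, 3.16 and 4.71 FPKM in E14, CJ7, Suz12delta and Eednull ESCs and at 1.21, 3.26, 10.3 and 8.93 FPKM in E14, Suz12GT, Suz12delta and Eednull cells at day 5. *Fzd5* at day 5 was at 0.255 in E14, 0.599 in Suz12GT, 1.89 in Suz12delta and 1.87 in Eednull cells. For all 3 receptors the order at day 5 was E14, Suz12GT, then the other 2 lines, and *Fzd5* had its lowest level of the 8 libraries in E14 cells at day 5, with a log2 ratio to E14 ESCs of -4.89. *Fzd2* was at 6.76, 4.93, 3.07 and 5.26 FPKM in E14, CJ7, Suz12delta and Eednull ESCs and at 12.3, 8.23, 13.4 and 11.1 FPKM in E14, Suz12GT, Suz12delta and Eednull cells at day 5, with no day 5 mutant at 2-fold. *Fzd7*, *Fzd8* and *Fzd10* also stayed under 2-fold in each mutant at day 5. A second *Fzd10* row, annotated as a pseudogene at the same place, was left out of all counts, and how reads were shared between both rows is unknown.

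The co-receptors varied least. *Lrp5* was at 13.0, 6.10, 9.15 and 11.0 FPKM in E14, CJ7, Suz12delta and Eednull ESCs and at 5.86, 5.77, 12.1 and 10.9 FPKM in E14, Suz12GT, Suz12delta and Eednull cells at day 5. *Lrp6* lay between 8.28 and 11.9 FPKM in 6 of the 8 libraries and was at 20.9 and 15.4 FPKM in Suz12delta and Eednull cells at day 5. *Lrp5* in Suz12delta cells, with a ratio of 1.03, was the only call of a co-receptor in the 3 day 5 comparisons, and it was no longer past 2-fold after scaling.

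**Figure D3:**
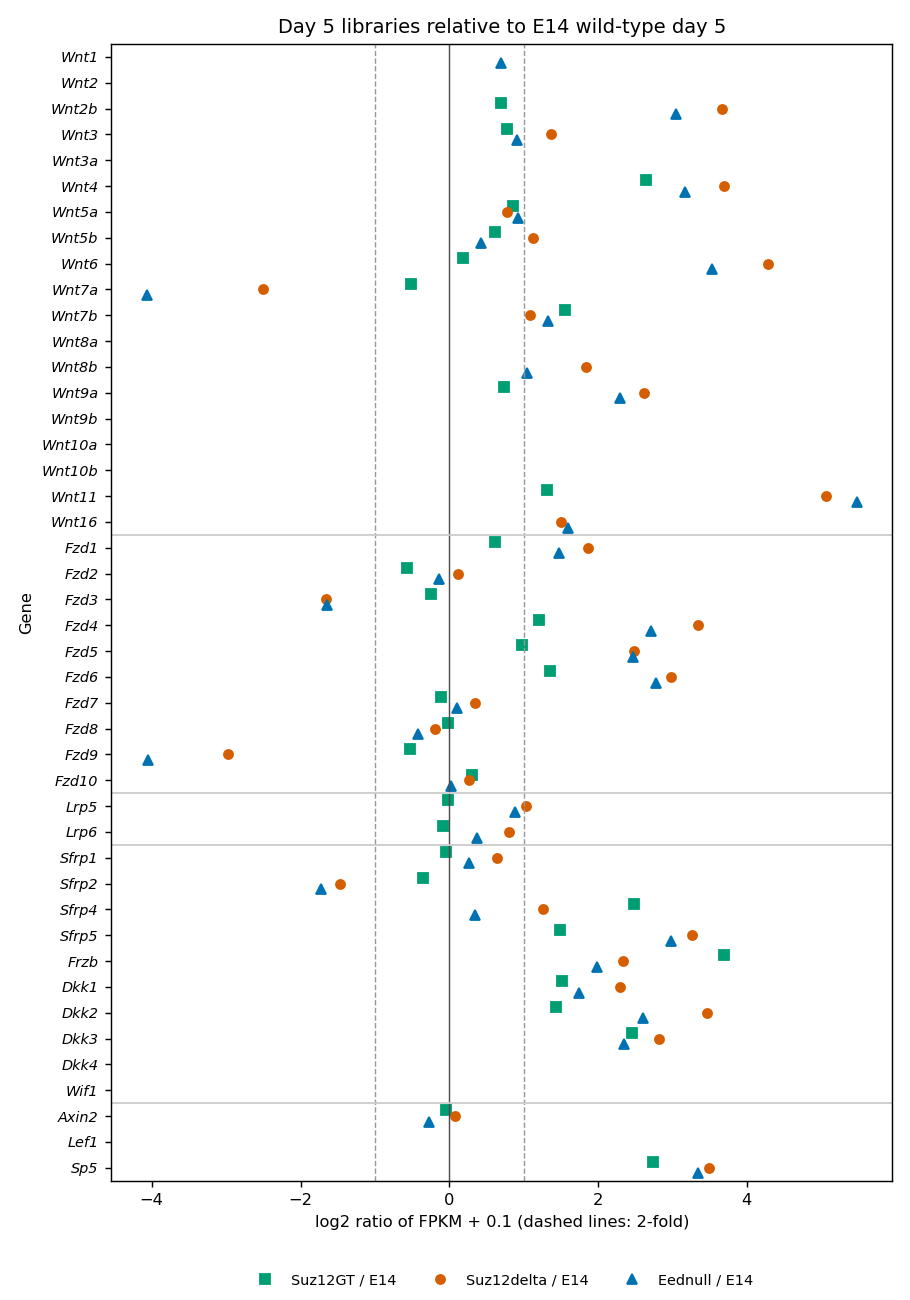
Log2 ratio of FPKM + 0.1 to E14 cells at day 5 for each gene (rows) in Suz12GT (green squares), Suz12delta (orange circles) and Eednull cells (blue triangles); dashed lines mark 2-fold and genes without a ratio have no symbol. *Wnt7a*, *Fzd3*, *Fzd9* and *Sfrp2* lie to the left in Suz12delta and Eednull cells, and *Frzb*, at 3.69 in Suz12GT cells, lies farther right there than in the other mutants.

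Among the 10 secreted antagonists, *Sfrp2* and *Sfrp1* were abundant in E14 cells at day 5, and the others were at 1.23 FPKM or less there. *Sfrp2* (chromosome 3, 83570243 to 83578238), a Wnt-binding protein of neural progenitors, was at 19.5 FPKM in E14, 4.40 in CJ7, 3.49 in Suz12delta and 9.0 in Eednull ESCs. The day 5 levels were 38.8 FPKM in E14 and 30.3 in Suz12GT cells and 13.9 in Suz12delta and 11.7 in Eednull cells, with ratios of -0.36, -1.47 and -1.72. It supplied 79.6% of the antagonist sum in E14 cells at day 5 and 31.8% in Suz12delta cells. In ESCs the E14 library was the high one, as CJ7 was also lower, by -2.12, and against CJ7 the Eednull ESC level was higher by 1.02. *Sfrp1* lay between 4.19 and 12.5 FPKM in all 8 libraries.

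Of the 8 antagonists with a ratio at day 5, 6 were higher in Suz12GT cells with a median of 1.5, 6 were higher in Suz12delta cells with a median of 2.32, and 5 were higher in Eednull cells with a median of 1.86, against 13.2%, 20.9% and 16.8% of all genes. With a pseudocount of 1 FPKM, 2 were higher in Suz12GT (median 0.41), 4 in Suz12delta (median 0.85) and 3 in Eednull cells (median 0.50). The shares of all genes were then 4.67%, 11.4% and 8.83%. The antagonist sums did not follow these counts. At day 5 the 10 antagonists summed to 48.7 FPKM in E14, 54.0 in Suz12GT, 43.7 in Suz12delta and 33.8 in Eednull cells. In E14, CJ7, Suz12delta and Eednull ESCs they summed to 32.4, 15.5, 29.2 and 29.3 FPKM. *Frzb* (chromosome 2, 80252127 to 80287782), a Wnt-binding protein of cartilage and mesenchyme, was at 0.197, 0.199, 0.654 and 0.889 FPKM in E14, CJ7, Suz12delta and Eednull ESCs and at 0.432 in E14, 6.76 in Suz12GT, 2.58 in Suz12delta and 2.0 in Eednull cells at day 5. *Frzb* and *Wnt7b* were the 2 of the 44 genes whose highest level of the 8 libraries was in Suz12GT cells. *Sfrp5*, expressed in endoderm, was at 0.203, 0.593, 0.206 and 0.921 FPKM in the same ESC libraries and at 0.199, 0.739, 2.77 and 2.27 FPKM in the same day 5 libraries. *Sfrp4* was high in wild-type ESCs, at 1.73 FPKM in E14 and 2.09 in CJ7, against 0.108 in Suz12delta and 0.201 in Eednull ESCs. It was the only one of 36 genes lower in both mutant ESC lines against both wild-type lines (2.78%, against 1.13% of all genes), and at day 5 it was at 0.0669 in E14, 0.832 in Suz12GT, 0.299 in Suz12delta and 0.111 in Eednull cells.

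Of the Dickkopf genes, *Dkk1*, *Dkk2* and *Dkk3* were higher in all 3 mutants at day 5. *Dkk3*, a divergent family member with no settled role on the LRP co-receptors, was at 2.96 FPKM in E14, 1.86 in CJ7, 12.7 in Suz12delta and 3.60 in Eednull ESCs, and at 1.23 in E14, 7.17 in Suz12GT, 9.26 in Suz12delta and 6.67 in Eednull cells at day 5. *Dkk2* was at 0.426, 0.929, 5.30 and 1.44 FPKM in the ESC libraries in that order and at 0.0189, 0.223, 1.21 and 0.619 FPKM at day 5. *Dkk1*, itself a target of Wnt signalling, was at 0.176, 0.856, 1.42 and 1.32 FPKM in ESCs and at 0.0161, 0.230, 0.473 and 0.287 FPKM at day 5. All 3 genes had their lowest level of the 8 libraries in E14 cells at day 5, and their day 5 ratios to E14 ranged from 1.44 to 3.46. *Dkk4* stayed at or under 0.10 FPKM in all libraries, and *Wif1* was listed at 0 in E14 and Suz12GT cells at day 5 and was at 0.655 and 0.446 FPKM in Suz12delta and Eednull cells. *Dkk3* and *Wnt5a* are also expressed by fibroblasts. The 12 fibroblast genes were higher in Suz12delta ESCs in 10 of 11 with a ratio, with a median of 2.40, and in Eednull ESCs in 6 of 11, with a median of 1.45, against 3 of 11 in CJ7. Of all genes, 13.7%, 11.5% and 6.69% were higher in that order. The part of the fibroblast genes in these differences was not tested.

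The feedback targets report on signalling through β-catenin, and TCF/LEF factors bind a short DNA element in such genes. The promoters of the 3 targets were chosen for the role of these genes. They are shown as the 250 bases before the RefSeq start, on the gene's own strand, from GRCm38.p6. The searched letters were the TCF/LEF element CTTTGAA and its variants, of which the second was CTTTGAT, the third was CTTTGTA and the last was CTTTGTT, each on both strands, and matches are in capitals. *Sp5* lies at chr2:70474673-70474922 (plus strand), *Axin2* at chr11:108920099-108920348 (plus strand) and the first of 4 *Lef1* windows at chr3:131110047-131110296 (plus strand).
Sp5: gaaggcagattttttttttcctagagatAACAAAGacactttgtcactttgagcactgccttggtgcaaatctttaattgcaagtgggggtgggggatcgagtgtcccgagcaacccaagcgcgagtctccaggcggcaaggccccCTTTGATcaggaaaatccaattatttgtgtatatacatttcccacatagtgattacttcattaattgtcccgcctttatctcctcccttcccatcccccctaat
Axin2: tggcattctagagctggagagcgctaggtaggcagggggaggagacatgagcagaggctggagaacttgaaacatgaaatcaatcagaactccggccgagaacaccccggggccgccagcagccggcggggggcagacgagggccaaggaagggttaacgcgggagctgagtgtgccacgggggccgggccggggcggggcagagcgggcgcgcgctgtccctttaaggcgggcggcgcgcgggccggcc
Lef1: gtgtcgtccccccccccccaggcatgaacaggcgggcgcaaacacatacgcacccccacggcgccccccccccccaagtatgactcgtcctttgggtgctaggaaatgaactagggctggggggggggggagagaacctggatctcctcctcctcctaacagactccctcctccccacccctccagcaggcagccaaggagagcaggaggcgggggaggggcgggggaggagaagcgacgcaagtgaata
*Sp5* held 2 matches, AACAAAG with its first base 222 bases before the start and CTTTGAT 104 bases before it, and the stretches shown for *Axin2* and *Lef1* held 0. The last of the 4 *Lef1* windows, 131156044 to 131156343 on chromosome 3, held 1 match, TACAAAG, and *Dkk1* held 2 matches; neither is printed. Over windows of 300 bases, which run on to 50 bases past the start, 7 of the 30 pathway genes with a window held a match (23.3%), against 18.9% of 27025 genes, so these letters were about as frequent here as in other promoters. A pair of matches or more was found in 1.94% of all windows. A match in letters is a description and not a binding site.

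*Axin2*, a negative regulator that is switched on by Wnt signalling in nearly all tissues, varied least of the 3 targets. It was at 10.9 FPKM in E14, 6.44 in CJ7, 6.01 in Suz12delta and 3.88 in Eednull ESCs and at 7.43, 7.22, 7.86 and 6.13 FPKM in E14, Suz12GT, Suz12delta and Eednull cells at day 5. Its day 5 ratios to E14 were -0.04, 0.08 and -0.27, so it stayed under 2-fold in each mutant, while the ligand sums were 13.3 FPKM in E14 and 21.3, 38.0 and 30.9 FPKM in the mutants. *Sp5*, a transcription factor of the primitive streak, was at 8.12 FPKM in E14 ESCs and lower in the other 3 ESC libraries, at 1.58 in CJ7, 0.838 in Suz12delta and 1.39 in Eednull cells. At day 5 it was at 0.194 FPKM in E14, 1.86 in Suz12GT, 3.20 in Suz12delta and 2.87 in Eednull cells, with ratios of 2.74, 3.49 and 3.34. *Lef1*, a DNA-binding partner of β-catenin, was at 12.5 FPKM in E14, 6.60 in CJ7, 2.01 in Suz12delta and 6.53 in Eednull ESCs. At day 5 it was listed at 0 in E14 and Suz12GT cells and was at 5.29 in Suz12delta and 4.35 in Eednull cells.

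**Figure D4:**
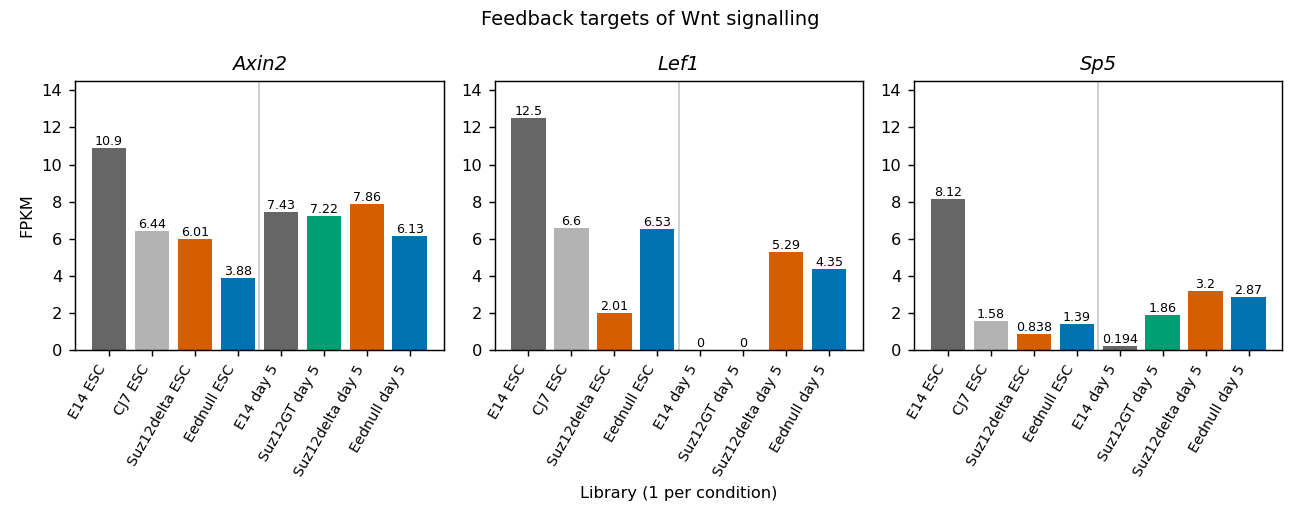
FPKM of *Axin2*, *Lef1* and *Sp5* in each library, 1 bar per library from 0, with the 4 ESC libraries on the left of each panel. *Axin2* lies between 6.13 and 7.86 FPKM in all 4 day 5 libraries, *Sp5* is lowest in E14 cells at day 5, and *Lef1* is listed at 0 in E14 and Suz12GT cells at day 5.

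The change from ESCs to day 5 took opposite directions in E14 and mutant cells for several of these genes. *Wnt11* was lower at day 5 in E14 cells, by a log2 ratio of -2.05, and higher in Suz12delta and Eednull cells, by 1.33 and 1.5. *Wnt6* had ratios of -1.53, 1.60 and 1.41 in the same order, and *Sp5* had ratios of -4.81, 1.82 and 1.0, the last just under 2-fold. *Wnt7a* was the reverse, higher at day 5 in E14 cells by 4.16 and lower in Suz12delta and Eednull cells, by -1.04 and -1.46. Other genes moved alike in each line: *Fzd3* was higher at day 5 by 3.46, 2.33 and 1.84 and *Dkk1* and *Dkk2* were lower, by -1.25, -1.40 and -1.88 and by -2.15, -2.04 and -1.10. In Suz12delta cells 7 of 10 Frizzleds were higher at day 5 and 0 lower, with a median of 1.57, against 24.6% and 9.64% of all genes and a median of 0.42. After scaling 6 were higher with a median of 1.19, against 14.8% of all genes.

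**Figure D5:**
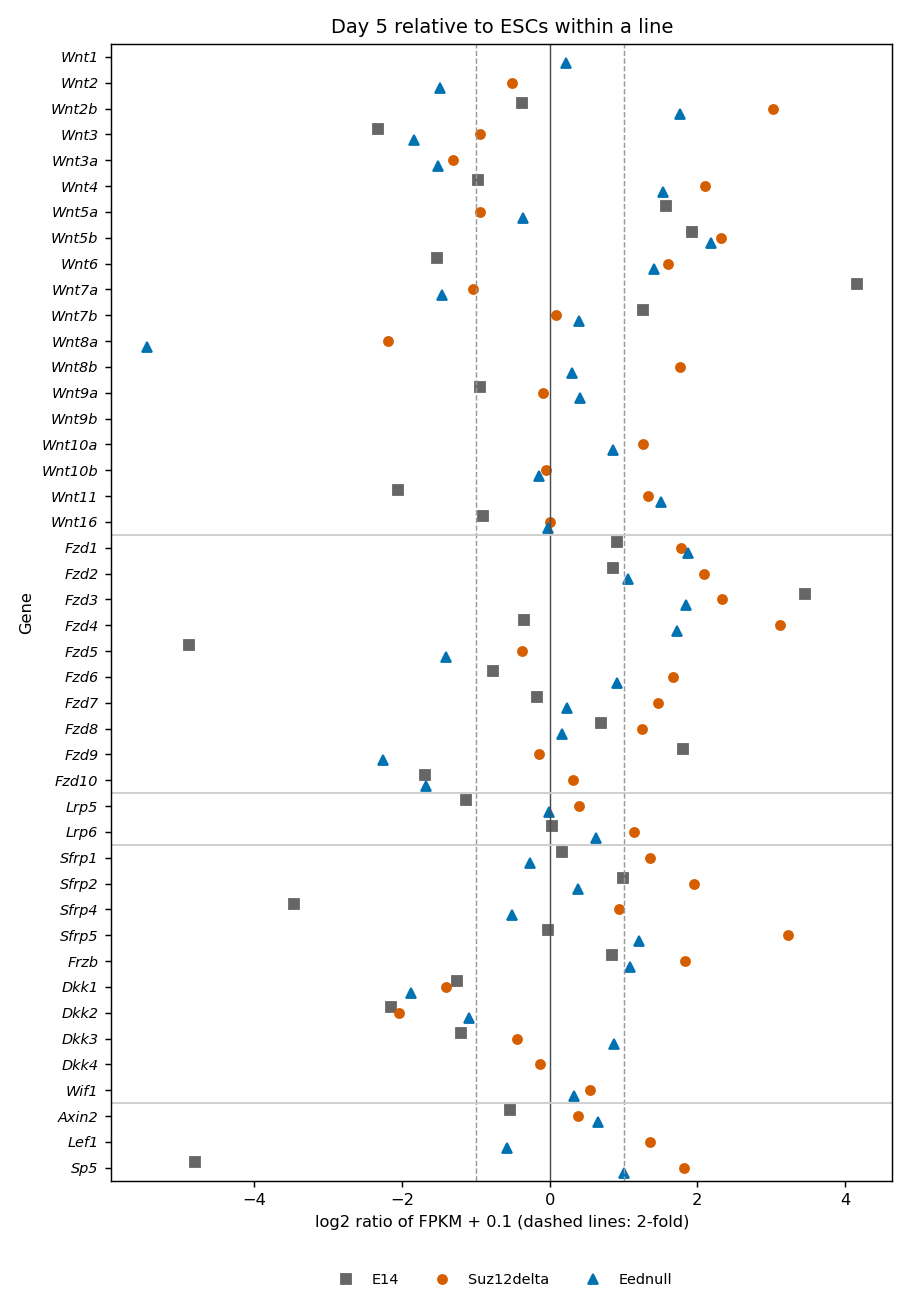
Log2 ratio of FPKM + 0.1 at day 5 to ESCs of the same line for each gene (rows) in E14 (grey squares), Suz12delta (orange circles) and Eednull cells (blue triangles); dashed lines mark 2-fold. *Wnt7a* lies at 4.16 in E14 cells and left of 0 in both mutant lines, while *Wnt6* and *Wnt11* lie left of 0 in E14 cells and right of it in both mutant lines.

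A list of 42 other genes of the pathway, covering Wnt secretion, R-spondins, LGR receptors and intracellular components, was counted in the same way. In ESCs, 7 of 40 with a ratio were higher and 9 lower in Suz12delta cells, 5 of 40 were higher and 3 lower in Eednull cells, and 2 of 40 were higher and 4 lower in CJ7 cells. The shares were 17.5% and 22.5% in Suz12delta, against 13.7% and 21.4% of all genes, and 12.5% and 7.50% in Eednull, against 11.5% and 9.71%, so they were near the background. The CJ7 counts stand against 6.69% and 11.2% of all genes. At day 5, 4 of 38 were higher and 0 lower in Suz12GT cells, with a median of 0.24, which is 10.5% higher against 13.2% of all genes. In Suz12delta cells 18 of 42 were higher (42.9%, against 20.9% of all genes) and 0 lower (against 7.75%), with a median of 0.77. In Eednull cells 19 of 41 were higher (46.3%, against 16.8%) and 0 lower (against 9.55%), with a median of 0.53. The R-spondins, secreted proteins that amplify Wnt responses, showed wide differences. *Rspo1* was at 0.0301 FPKM in E14, 0.351 in Suz12GT, 7.91 in Suz12delta and 6.07 in Eednull cells at day 5, and *Rspo3* at 0.0185, 0.231, 4.78 and 4.51 FPKM. *Rnf43*, a membrane ubiquitin ligase that removes Frizzleds and is itself a Wnt target, was at 0.149, 0.367, 4.49 and 5.61 FPKM, and *Ror1*, a receptor for WNT5A, at 0.0964, 0.450, 5.47 and 6.85 FPKM in the same 4 libraries. Each of these 4 genes ranked E14, Suz12GT, then the other 2 lines. *Cthrc1*, a secreted cofactor of Wnt and Frizzled, had ratios to E14 of 4.28 in Suz12GT, 4.25 in Suz12delta and 4.72 in Eednull cells at day 5, at 0.698 FPKM in E14, 15.4 in Suz12GT, 15.1 in Suz12delta and 20.9 in Eednull cells. *Notum*, a secreted enzyme that inactivates Wnts and a feedback target, was at 19.8 FPKM in E14 and 18.3 in CJ7 ESCs, 3.61 in Suz12delta and 7.78 in Eednull ESCs, and at day 5 at 0.105 in E14, 0.12 in Suz12GT, 2.91 in Suz12delta and 1.21 in Eednull cells. By contrast, *Ctnnb1*, which encodes β-catenin, lay between 158 and 224 FPKM in ESCs and between 275 and 431 FPKM at day 5.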

How the data were processed

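RNA-seq was analysed for 8 libraries, 1 per condition. The deposited values are FPKM of each gene, which the authors estimated with Cufflinks 1.2.1 and Cuffdiff from reads aligned by TopHat 1.3.2 on top of Bowtie 0.12.7, using an annotation of NCBI build 37, with correction for sequence bias and for reads that map to several places. Counts were not used here, so the depth in reads is unknown: low values shared a commonest ratio between libraries in at most 3.73% of genes, too few to recover whole reads. The FPKM of a library summed to between 389165 and 797748, its 75th percentile lay between 15.0 and 19.6 FPKM, and each library listed at 0 between 0 and 5 genes that reached 10 FPKM in all the others. All 8 value columns were assigned from their names and the labels.

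Log2 ratios of FPKM + 0.1 were computed over genes above 0 in both libraries and at 0.1 FPKM or more in at least 1, and differences of 2-fold or more were called. The planned designs held no test, as 1 library per condition allows none. Genes were described library by library when they reached 1 FPKM in at least 1 library and differed by at least 4-fold in at least 1 of 9 comparisons, together with *Axin2*, *Lef1* and *Sp5*; that gave 27 of 44 genes. *Lrp5*, *Lrp6*, *Fzd7*, *Sfrp1*, *Wnt3a*, *Wnt10a*, *Wnt10b*, *Dkk4*, *Wif1* and the other pathway genes were named outside that rule after their values were seen. The 44 genes, the 42 other pathway genes, the marker lists and the comparisons were chosen with earlier results of these data known. Of the early mesoderm list, *Foxf1* was not matched by symbol. Gene coordinates are from GENCODE vM1, which held 36104 of the 36808 identifiers. Promoter windows are from RefSeq GRCm38.p6, held 30 of the 44 genes, and share no coordinates with the table. The counting was tested on simulated data. As alternatives, the pseudocount was set to 1 or 0.01, the minimum to 1 FPKM or none, and the 75th percentile of the 17842 genes with a value above 0 throughout was made equal between libraries; others were keeping genes listed at 0 in 1 library, and CJ7 as wild-type ESCs. Software versions were pandas 2.3.3 and NumPy 2.4.6 under Python 3.11.15, with figures from matplotlib 3.10.9.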

Additional observations from a re-analysis of the deposited data

Results flagged for a closer look

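The change from ESCs to day 5 was at least 2-fold in opposite directions in E14 and in a mutant line for 5 of the 33 genes with a ratio in E14 and in a mutant line (15.2%), against 4.36% of 18629 such genes in the whole table. The log2 ratio of day 5 to ESC was -1.53 in E14, 1.60 in Suz12delta and 1.41 in Eednull cells for *Wnt6*. For *Wnt11* it was -2.05 in E14, 1.33 in Suz12delta and 1.5 in Eednull cells. For *Wnt7a* it was 4.16 in E14, -1.04 in Suz12delta and -1.46 in Eednull cells. For *Fzd9* it was 1.80 in E14 and -2.26 in Eednull cells, and for *Sp5* it was -4.81 in E14 and 1.82 in Suz12delta cells. With 1 library per condition none of these differences between lines was tested. No group held enough samples to look for a library that stood apart within it.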

How the results depend on the processing

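Of 112 counts recomputed under an alternative, 95 stayed within 1.5 times the reported count. The counts with no minimum on FPKM were bound to stay. A gene under the reported minimum in both libraries cannot reach 2-fold with the reported pseudocount. The 95 therefore overstates how stable the counts were. With a pseudocount of 1 FPKM, the genes called higher were 7 in Suz12delta, 3 in Eednull and 0 in CJ7 ESCs against E14, 5 in Suz12GT and 14 in Suz12delta cells at day 5, and 7 from ESC to day 5 in Eednull cells. Those called lower were then 2 in CJ7 ESCs and, from ESC to day 5, 5 in E14, 1 in Suz12delta and 3 in Eednull cells. In the order of these counts, 7.33%, 3.44%, 1.37%, 4.67%, 11.4% and 9.41% of all genes were higher. The shares of all genes that were lower were 5.55%, 12.9%, 5.29% and 7.70%. With a minimum of 1 FPKM, 6 genes were higher in Eednull ESCs, 1 in CJ7 ESCs and 7 in Suz12GT cells at day 5, and 6 were lower at day 5 in E14 cells, where fewer genes had a ratio. The shares of all genes were then 8.12%, 3.82%, 10.5% and 20.1% in that order. Scaling to the same 75th percentile left 3 lower in Eednull and 4 lower in CJ7 ESCs, against 7.38% and 7.65% of all genes. With CJ7 as wild type, 1 was lower in Eednull ESCs, against 5.71% of all genes, and *Wnt3a* (-0.83) and *Sfrp2* (1.02) reversed in direction there. Of the values of single genes, 950 stayed within the limits of the reported call, 108 moved and 2 reversed, and the cause was not tested. Changing the minimum or keeping genes listed at 0 cannot alter the value of a called gene. Values under those settings were bound to stay, so the 950 overstates how stable the calls were. No library could be left out, as each condition has 1. No paired analysis was possible because each condition has 1 library and the labels give no replicate numbers. The unknown depth limits the genes under 1 FPKM.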
